A study of Mus musculus with 4 samples.

Results

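Narrow stretches of open chromatin at the ends of protein-coding genes were examined across 4 mouse lung tumour samples. They were chosen from the authors' merged regions in mm10 as the autosomal ones that a peak of each of the 4 libraries overlapped by at least 1 bp, that were narrower than 1500 bp, and that reached into the window of 2 kb either side of an end of a protein-coding gene in RefSeq. The rule kept 9499 regions. These were 15.6% of the 60713 autosomal regions, 36.0% of the 26402 autosomal regions shared by all libraries, and 88.2% of the 10766 shared regions at gene ends. The other 1267 shared regions at gene ends measured 1500 bp or more and are called wide in what follows. Presence in all libraries, width and place were thus fixed by the choice and are given as descriptions.

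The samples were snap-frozen lung tumour tissue of mice of strain C57B6J aged 55 weeks, profiled by ATAC-seq, an assay in which a transposase cuts and tags accessible DNA. Mice of the KrasLA1 group had the genotype KrasLA1/+, in which KrasLA1 is a latent allele that becomes active by spontaneous recombination in scattered cells. Mice of the KrasLA1;Dicer1S2D group had the genotype KrasLA1/+;Dicer1S2D/+. They therefore had KrasLA1 as well and, in addition, 1 copy of a Dicer1 allele built to imitate the phosphorylated enzyme. Each group had 2 libraries, 1 of a female mouse (replicate 1) and 1 of a male mouse (replicate 2). The labels do not say how many tumours went into a sample. The authors' peaks are intervals with no count or height, so the depth behind them is unknown, and their total per library ran from 34767 to 50282. In such bulk tissue, fewer open cells and less open chromatin per cell cannot be told apart.

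A promoter is the stretch of DNA around the base where transcription of a gene starts. At active promoters nucleosomes are displaced by transcription factors and RNA polymerase II, which leaves an accessible gap that a transposase can enter. Most promoters of broadly used mammalian genes lie in CpG islands, stretches that have kept the CpG dinucleotides lost from the rest of the genome. They are bound by factors such as Sp1 at GC boxes, NRF1, NF-Y at CCAAT boxes and ETS proteins such as GABPA, whereas a TATA box is more usual at genes with tissue-restricted or induced expression.

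Several promoters covered by narrow regions show how such sequences differ. Each line gives the 250 bases before the start of a gene, read from 5′ to 3′ on the strand of the gene from RefSeq on GRCm38.p6, the assembly behind mm10. Capitals mark matches, on either strand, to short elements named after each set, and positions count the bases from a match's first base to the start. Eme2, which encodes a subunit of a DNA structure-specific nuclease, and Tomm6, for a part of the import pore of the mitochondrial outer membrane, are shown because their regions were among those near the most genes. Their promoters are at chr17:24895088-24895337 and chr17:47688387-47688636, both on the minus strand.
Eme2: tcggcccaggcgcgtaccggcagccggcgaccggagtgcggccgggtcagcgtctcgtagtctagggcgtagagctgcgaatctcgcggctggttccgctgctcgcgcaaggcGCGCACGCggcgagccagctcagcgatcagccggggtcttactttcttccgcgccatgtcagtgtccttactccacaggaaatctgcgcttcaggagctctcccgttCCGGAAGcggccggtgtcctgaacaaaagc
Tomm6: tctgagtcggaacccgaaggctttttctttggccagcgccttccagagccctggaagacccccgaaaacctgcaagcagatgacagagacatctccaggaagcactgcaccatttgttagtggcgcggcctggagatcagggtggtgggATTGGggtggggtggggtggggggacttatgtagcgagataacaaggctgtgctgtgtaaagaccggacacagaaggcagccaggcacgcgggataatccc
Eme2 had an NRF1 element at -137 and an ETS element at -30, and Tomm6 a CCAAT box, read on the other strand, at -101. Sf3b2, which encodes a subunit of the splicing factor SF3b, and Timmdc1, for an assembly factor of respiratory complex I, are shown because their peaks were nearly the same in every library. Their promoters are at chr19:5295458-5295707 and chr16:38522664-38522913 on the minus strand, and this pair, like the next, was picked after the values were seen.
Sf3b2: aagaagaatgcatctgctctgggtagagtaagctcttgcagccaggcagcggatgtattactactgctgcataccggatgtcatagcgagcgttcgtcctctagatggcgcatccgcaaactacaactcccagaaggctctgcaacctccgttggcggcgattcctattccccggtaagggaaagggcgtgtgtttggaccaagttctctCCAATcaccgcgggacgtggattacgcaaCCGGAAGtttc
Timmdc1: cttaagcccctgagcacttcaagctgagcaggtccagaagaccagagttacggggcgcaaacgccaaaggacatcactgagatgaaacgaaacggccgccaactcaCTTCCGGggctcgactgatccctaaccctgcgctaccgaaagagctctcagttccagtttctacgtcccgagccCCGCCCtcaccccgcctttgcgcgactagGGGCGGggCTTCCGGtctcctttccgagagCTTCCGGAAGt
Sf3b2 had a CCAAT box at -40 and an ETS element at -11. Timmdc1 had ETS matches at -144, -33, -11 and -8, of which the last pair overlap on opposite strands, and GC boxes at -70 and -41. Atm, for the kinase that signals DNA double-strand breaks, and Ppia, for the abundant prolyl isomerase cyclophilin A, had the widest narrow regions of the DNA repair and housekeeping genes. Their promoters are at chr9:53536672-53536921 on the minus strand and chr11:6415617-6415866 on the plus strand.
Atm: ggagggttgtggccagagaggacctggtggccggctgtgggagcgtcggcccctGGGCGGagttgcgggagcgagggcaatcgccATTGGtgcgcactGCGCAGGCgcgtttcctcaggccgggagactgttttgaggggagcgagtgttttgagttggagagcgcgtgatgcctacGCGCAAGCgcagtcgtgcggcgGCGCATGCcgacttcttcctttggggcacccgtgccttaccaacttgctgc
Ppia: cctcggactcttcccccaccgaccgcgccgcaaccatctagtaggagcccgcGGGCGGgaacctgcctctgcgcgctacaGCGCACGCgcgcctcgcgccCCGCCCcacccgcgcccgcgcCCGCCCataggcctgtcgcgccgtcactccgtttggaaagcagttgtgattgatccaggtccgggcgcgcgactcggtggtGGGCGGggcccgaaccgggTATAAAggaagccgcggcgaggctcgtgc
Atm had NRF1 elements at -152, -73 and -51, a GC box at -196 and a CCAAT box at -165. Ppia had GC boxes at -198, -150, -129 and -48, an NRF1 element at -170 and a TATA box at -29. Eml1 (chr12:108370903-108371152, plus strand), B3gnt3 (chr8:71701801-71702050, minus), Kcnn3 (chr3:89519914-89520163, plus) and Cers4 (chr8:4493155-4493404, plus) are shown because, among regions over a start, they were the first 2 per direction by genotype difference in width. Abca14 (chr7:120203714-120203963, plus) is shown because its region was the narrowest.
Eml1: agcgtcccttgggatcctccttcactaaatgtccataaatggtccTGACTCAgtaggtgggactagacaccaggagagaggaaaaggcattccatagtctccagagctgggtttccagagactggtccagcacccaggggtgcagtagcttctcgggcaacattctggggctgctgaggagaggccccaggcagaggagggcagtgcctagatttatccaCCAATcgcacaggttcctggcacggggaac
B3gnt3: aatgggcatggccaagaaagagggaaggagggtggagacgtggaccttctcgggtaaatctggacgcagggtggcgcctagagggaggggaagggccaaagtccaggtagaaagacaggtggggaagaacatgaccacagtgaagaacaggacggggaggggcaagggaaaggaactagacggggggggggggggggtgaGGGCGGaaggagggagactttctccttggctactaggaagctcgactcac
Kcnn3: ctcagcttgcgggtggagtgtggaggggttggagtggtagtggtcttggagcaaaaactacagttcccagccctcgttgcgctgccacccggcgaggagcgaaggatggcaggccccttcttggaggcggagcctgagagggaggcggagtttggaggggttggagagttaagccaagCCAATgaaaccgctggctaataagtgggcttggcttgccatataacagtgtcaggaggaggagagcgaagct
Cers4: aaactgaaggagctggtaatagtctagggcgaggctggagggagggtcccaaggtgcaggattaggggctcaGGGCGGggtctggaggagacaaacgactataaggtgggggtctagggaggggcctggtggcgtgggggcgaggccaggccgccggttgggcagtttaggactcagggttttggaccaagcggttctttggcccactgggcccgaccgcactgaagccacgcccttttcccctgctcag
Abca14: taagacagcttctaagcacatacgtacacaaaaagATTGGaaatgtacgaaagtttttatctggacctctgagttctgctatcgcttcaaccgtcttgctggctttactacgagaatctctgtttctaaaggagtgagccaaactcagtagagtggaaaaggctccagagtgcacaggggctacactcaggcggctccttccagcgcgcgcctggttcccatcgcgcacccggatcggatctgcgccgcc
None of these last 5 sequences had an ETS or NRF1 match. Eml1 had an AP-1 element at -205 and a CCAAT box at -30, B3gnt3 a GC box at -50, Kcnn3 a CCAAT box at -72, Cers4 a GC box at -178, and Abca14 a CCAAT box at -215.

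Most narrow regions lay on the start of a gene, and only a small share lay at a gene's finish alone. The start base of at least 1 protein-coding gene was covered by 6196 of the 9499 regions (65.2%). Among the 7790 regions near a gene whose direction is known from the RefSeq promoter table, 79.5% covered a start, compared with 90.0% of 1040 wide regions. A wider region is also more likely to reach a start. Another 848 narrow regions lay near a start without covering a start base of that table. Of the rest, 750 lay near a finish only and covered no start, and 1705 lay near genes of unknown direction. Of 16457 genes with a known direction, 7509 (45.6%) had a narrow region within 2 kb of the start and 1692 (10.3%) within 2 kb of the finish. The start base itself was in a narrow region for 6753 genes (41.0%) and in a wide one for 1064 (6.47%).

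Peaks over starts reached farther into the gene than before it. At the 5099 regions that covered a single start, the median upstream edge lay at -309 and -333 bp from the start in KrasLA1 replicates 1 and 2, and at -299 and -296 bp in KrasLA1;Dicer1S2D replicates 1 and 2. The downstream edge lay 456 and 476 bp into the gene in KrasLA1, and 425 and 404 bp in KrasLA1;Dicer1S2D. Bases in peaks of all 4 libraries ran, by medians, from -248.5 bp to 351 bp from the start. The edges of wide regions were farther out on both sides, with medians of -591.5 to -686 bp upstream and 782 to 984 bp downstream. At both edges of narrow regions the KrasLA1 libraries lay farther from the start than either KrasLA1;Dicer1S2D library, with a difference of means of 23.5 bp upstream and -51.5 bp downstream. The exact two-sided permutation test gives p = 0.333 for each, the smallest that 2 against 2 allows.

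**Figure D1:**
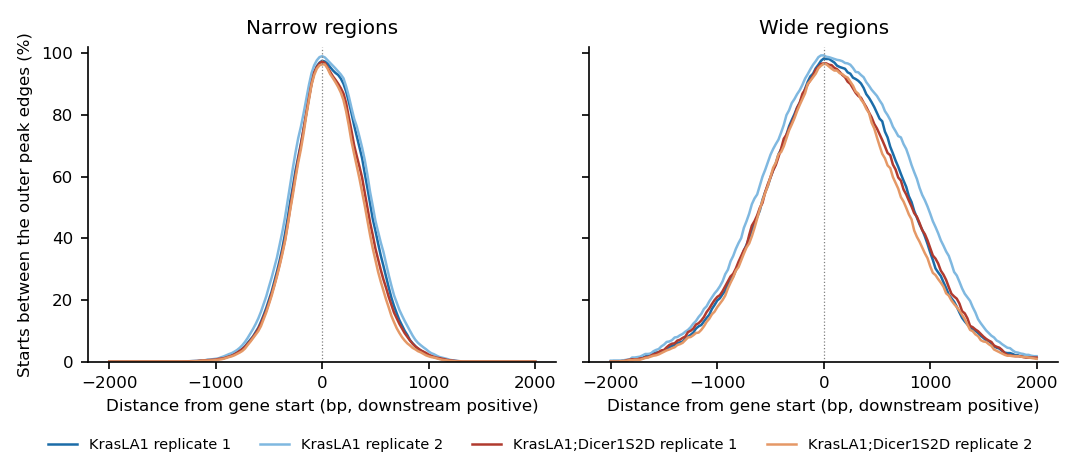
Share of gene starts (y axis, percent) that lie between the outer peak edges of a region at each distance from the start (x axis, bp, downstream positive), with a line for each library, for 5099 narrow shared regions at gene ends and 692 wide shared regions at gene ends that cover a single start. Regions were chosen for covering the start, so the peak of all 4 lines there (96.4% to 99.0% in narrow regions) was set beforehand. In narrow regions the lines fall to between 32.8% and 45.6% at 500 bp downstream, where the wide regions are still at 72.7% to 86.1%.

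Regions over a start were wider and more alike between libraries than those beside one. Their median merged width was 951 bp, compared with 734 bp for regions near a start that covered none, and it was lower still for regions near a finish only. The same order held in each library: regions over a start had median peak widths of 749 to 869 bp, those beside a start 481 to 660.5 bp, and those near a finish 466 to 613.5 bp. The part of a region that was in peaks of all libraries, its common core, was 71.5%, 57.9% and 55.8% of the merged width by median. The SD of the log2 widths of the 4 libraries, each centred on its own median, was 0.17, 0.26 and 0.29 in the same order. A wider region is more likely to span a start, so sorting by that favours wider ones over starts. All of this describes the chosen regions and has no test.

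**Figure D2:**
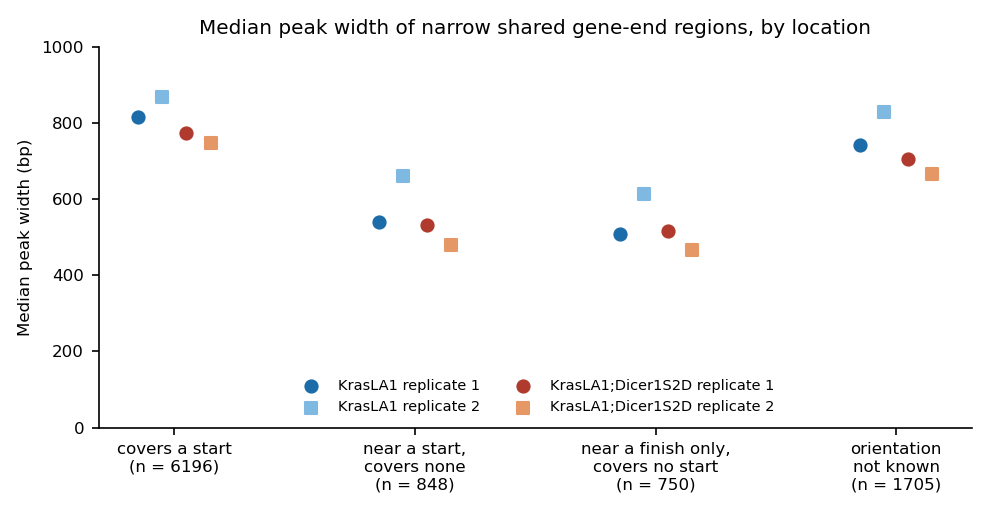
Median peak width (y axis, bp) in each library (1 point each) of narrow regions by where they lie relative to a gene (x axis, number of regions in brackets). In all 4 libraries the regions that cover a start are the widest, at 749 to 869 bp, and KrasLA1 replicate 2 has the highest value in every location.

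Narrow regions beside a start lay a median of 617 bp from it. Downstream of it lay 422 of the 848 and upstream 256. The other 170 lay over a gene's annotated end on the start side, though over no start base of the promoter table. In the median above they count as no distance. The nearest start was in a shared region in 370 cases and in no region in 434 (51.2%). The 370 include these 170, whose own region covers it. Regions at a finish lay beyond the gene in 409 of 750 cases, inside it in 259, and over the last base in 82. Among these, chosen after the values were seen, a region of 803 bp beyond Zfp846, a zinc finger gene, at chr9:20607092-20607894, was 795 and 796 bp wide in KrasLA1 and 785 and 787 bp in KrasLA1;Dicer1S2D. The region of 1485 bp inside the finish of Ptger4, which encodes a prostaglandin E2 receptor, at chr15:5234454-5235938, was 1426, 1392 and 1485 bp wide in the first 3 of the same libraries and 411 bp in KrasLA1;Dicer1S2D replicate 2.

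Some narrow regions covered the starts of a pair of genes that are read in opposite directions. Starts of 2 genes on opposite strands were covered by 564 regions, 9.10% of those over a start, compared with 13.2% of wide ones. In 496 of the pairs the genes were read away from each other, with a median of 122 bp between the starts (middle 50% of pairs 63.75 to 239.25 bp). The median width was 1051 bp for paired regions and 940 bp for those over a single gene. Their peaks were wider in each library, at 953.5 and 971 bp compared with 803 and 858 bp in KrasLA1, and at 874 and 847.5 bp compared with 762 and 739 bp in KrasLA1;Dicer1S2D. A region has to span both starts to count as paired, which favours wider ones. Examples are the regions over Atm and Npat, a regulator of histone gene transcription, and over Psmb9 and Tap1, which encode an immunoproteasome subunit and a peptide transporter of antigen presentation. The latter, at chr17:34186971-34188286, was 1265 and 1294 bp wide in KrasLA1 and 1234 and 1210 bp in KrasLA1;Dicer1S2D. Tomm6 lay in the region that reached the windows of the most genes: it was within 2 kb of Frs3, Gm20517, Prickle4 and Usp49 too, was 601 and 696 bp wide in KrasLA1 and 608 and 670 bp in KrasLA1;Dicer1S2D, and covered only the start of Tomm6. Eme2 followed with 4 genes, as did Tnfsf13, which encodes the cytokine APRIL. The region near Tnfsf13 covered no start, and its peaks ran from 202 bp in KrasLA1;Dicer1S2D replicate 2 to 578 bp in KrasLA1 replicate 2.

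CpG-rich promoters made up most of those under narrow regions. The promoter table gives 300 bases around each of 20085 autosomal starts, 250 before and 50 after, and narrow regions covered 7539 of these starts. Their median ratio of observed to expected CpG was 0.799, and 80.2% had a ratio above 0.6, called CpG-rich here. The same share was 82.8% under wide regions, 53.4% under other regions, 18.4% where no library had a region, and 48.9% over all promoters. Read the other way, narrow regions covered 61.6% of the 9822 CpG-rich promoters and 14.5% of the 10263 others, and no library had a region at 17.7% and 74.9% of them. Within narrow regions, CpG-rich promoters had wider regions than the others, with a median of 985 bp compared with 877 bp. Across the 7539 promoters the rank correlation of region width with the CpG ratio was weak (Spearman's rho 0.17, Pearson's r 0.17, promoters that share regions and libraries and are not replicates).

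Of the elements searched, the ETS element differed most between narrow and wide regions, in percentage points. The letters CCGGAAG were found on either strand in 23.2% of promoters under narrow regions, 12.4% under wide regions, 9.14% under other regions, 3.30% where no region was called, and 11.9% of all promoters. Among CpG-rich promoters alone the share was 25.8% under narrow regions (95% Wilson interval 24.7 to 26.9%) and 13.6% under wide ones (11.6 to 15.8%). These intervals cover counting error only, and starts of the same gene share bases. With the promoters split by region width into 4 sets of like size, from the narrowest, the share was 23.5%, 26.7%, 24.3% and 18.3%. Matches lay at a median position of -35. Eme2, Sf3b2 and Timmdc1, printed above, are examples, each with a match closer to the start than that. Regions over a promoter with a match were 832 and 842.5 bp wide by median in KrasLA1 and 769.5 and 747.5 bp in KrasLA1;Dicer1S2D, close to those without, at 816 and 885 bp and 781 and 753 bp.

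GC boxes went the other way. The letters GGGCGG, bound by Sp1 and its relatives, were in 69.5% of promoters under narrow regions, 77.1% under wide ones and 47.0% of all. Among CpG-rich promoters the shares were 74.7% (73.6 to 75.8%) under narrow and 82.4% (80.0 to 84.6%) under wide regions. They were 74.6% (71.8 to 77.2%) under other regions, 68.0% (65.8 to 70.1%) without a region and 74.3% of all, narrow ones included. So among CpG-rich promoters narrow regions were close to other regions. Over all promoters under narrow regions, the share rose from 62.9% to 77.0% from the narrowest to the widest of the 4 sets by width. The NRF1 element GCGCANGC was in 23.1% of promoters under narrow regions, 21.0% under wide ones and 13.5% of all, and among CpG-rich promoters the intervals of narrow and wide overlapped (27.0%, 25.9 to 28.2%, and 24.5%, 22.0 to 27.3%). YY1 elements (AAGATGGC) were in 5.17% of promoters under narrow regions and 3.06% of all, and lay at the start itself, with a median position of +6. Cyclic AMP response elements (TGACGTCA) were in 3.89%, compared with 2.30% of all. The E-box CACGTG, bound by USF and MYC, was in 10.9% compared with 7.89%, and CCAAT, bound by NF-Y, in 39.5% compared with 38.1%. Among CpG-rich promoters the E-box stood in 11.7% under narrow regions (10.9 to 12.6%) and 11.4% of all, within that interval. The intervals overlapped for the cyclic AMP response element too, at 4.38% (3.89 to 4.93%) and 3.77% (3.41 to 4.16%). Narrow regions hold 6050 of the 9822 CpG-rich promoters, so overlap with the whole says little. Under other regions this element was in 2.50% (1.70 to 3.67%) and without a region in 2.25% (1.65 to 3.06%), both below the interval of narrow regions. Under wide regions it was in 3.95% (2.92 to 5.31%). For the E-box these shares were 8.81% (7.21 to 10.7%), 11.2% (9.84 to 12.8%) and 12.1% (10.3 to 14.3%).

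TATA and AP-1 elements were scarcer under narrow regions than among all promoters. Among CpG-rich ones only TATA stood apart, and only from promoters without a region. TATAAA stood in 5.80% of promoters under narrow regions and in 12.7% of all. Counted only where it began between -40 and -20, the place of a working TATA box, it was in 69 of 7539 (0.915%), in 1.67% under wide regions, and in 4.19% of promoters without a region. Ppia is among the 69. The AP-1 element TGANTCA, bound by Fos and Jun proteins, was in 4.26% under narrow regions and 7.06% of all. Among CpG-rich promoters the intervals overlapped, at 5.19% (4.66 to 5.78%) under narrow regions and 5.57% (5.13 to 6.04%) of all for TATAAA, and 3.21% (2.79 to 3.68%) and 3.47% (3.13 to 3.85%) for TGANTCA. All CpG-rich promoters include the narrow ones, which draws these shares together. In CpG-rich promoters without a region TATAAA was in 7.44% (6.30 to 8.77%), above the interval of narrow ones. TGANTCA was in 3.69% of them (2.90 to 4.69%), which overlaps. A match to any of these letters is a description of the sequence and does not show that a factor was bound. The elements were counted separately, and matches may overlap.

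**Figure D3:**
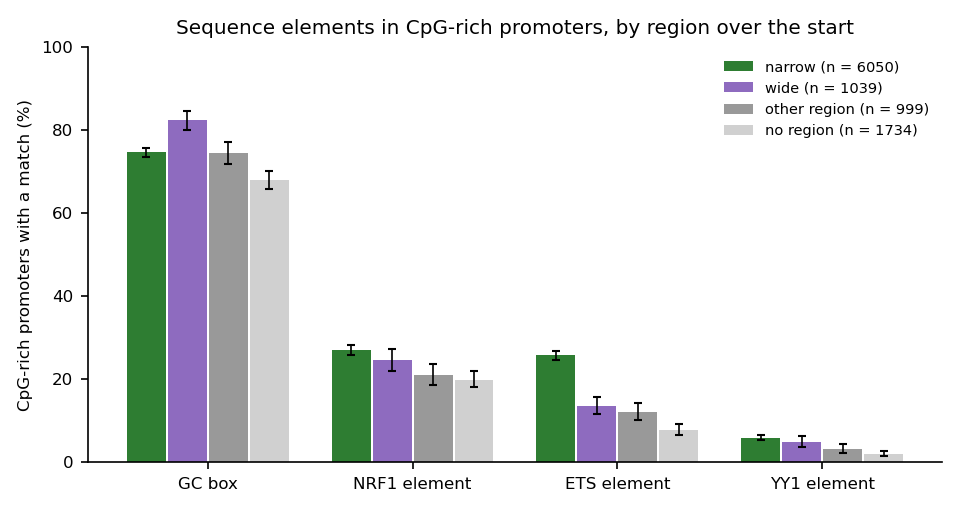
Share of CpG-rich promoters (y axis, percent) with a match to each of 4 elements (x axis), for promoters whose start is under a narrow region, a wide region, another region or none. Bars are shares and lines 95% Wilson intervals for counting error; ETS elements are at 25.8% under narrow and 13.6% under wide regions, and GC boxes at 74.7% and 82.4%.

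Narrow regions were at nearly every gene of some lists and at hardly any of others. Over all 20665 autosomal protein-coding genes, 9995 (48.4%) had a narrow region within 2 kb of an end, 1262 (6.11%) a wide one only, and 7396 (35.8%) no region in any library. The Mediator complex, which links transcription factors to RNA polymerase II, had narrow regions at 25 of 26 genes (96.2%). DNA repair genes had them at 28 of 30 (93.3%), splicing factors at 38 of 41 (92.7%), and tRNA synthetases, which load amino acids onto tRNA in the cytosol, at 18 of 20 (90.0%) and wide regions at the other 2. Respiratory complex I subunits had 31 of 35 (88.6%), proteasome subunits 33 of 38 (86.8%), ribosomal proteins 61 of 71 (85.9%) and mitochondrial ribosomal proteins 64 of 75 (85.3%). Ubiquitin-conjugating enzymes had 25 of 30 (83.3%), autophagy genes of the Atg series 14 of 17 (82.4%), DEAD-box helicases 27 of 35 (77.1%) and intraflagellar transport genes, which build cilia, 8 of 14 (57.1%). The 14 reference genes often used as housekeeping controls had a narrow region at 7 and a wide one only at 5. No set was tested, and the lists were drawn up with earlier results of these data known.

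Median widths of these lists lay on both sides of that of all narrow regions, 909 bp. Autophagy genes had the highest, 1124.5 bp, and the housekeeping controls the lowest, 694 bp. Ribosomal protein regions had a median of 923 bp, Mediator 880.5 bp, splicing factors 889 bp, mitochondrial ribosomal proteins 820 bp and intraflagellar transport genes 802 bp. Near Rps15, a small-subunit protein, the narrowest region of its list (chr10:80295651-80295967) was 212 and 309 bp wide in KrasLA1 and 294 and 272 bp in KrasLA1;Dicer1S2D, and it covered the start of the neighbouring Apc2. Near Psmd9, a proteasome subunit, the narrowest of its list (533 bp) was 367 and 533 bp wide in KrasLA1 and 343 and 396 bp in KrasLA1;Dicer1S2D. Med21, a Mediator subunit, had peaks of 1156 and 1097 bp in KrasLA1 and 1261 and 997 bp in KrasLA1;Dicer1S2D over its start (chr6:146642168-146643547). At Med24 the narrowest Mediator region (chr11:98729181-98729566) was 172 and 225 bp wide in KrasLA1 and 169 and 351 bp in KrasLA1;Dicer1S2D. The genotypes overlapped at both Mediator genes.

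Lists of regulators had narrow regions at between 50.0% and 80.0% of their genes. Zinc finger genes of the Zfp series, many of which encode KRAB repressors, had them at 287 of 386 genes (74.4%), cell cycle genes at 20 of 25 (80.0%) and chromatin regulators also at 20 of 25, with a further 3 under wide regions only. Of microRNA machinery genes 11 of 16 (68.8%) had one, with a median width of 1073 bp. Of MAPK pathway targets, which are transcribed in response to MAP kinase signalling, 10 of 15 had a narrow region and the other 5 a wide one only. AP-1 genes, among the fastest to be induced, were split between narrow (5 of 10) and wide only (4 of 10). Spry2, a feedback inhibitor of receptor tyrosine kinase signalling, had the third narrowest region of all (chr14:105897285-105897507), at 223 and 217 bp in KrasLA1 and 214 and 189 bp in KrasLA1;Dicer1S2D. Fosb, an AP-1 subunit, had a region of 464 bp over its start (chr7:19310030-19310493), at 385 and 464 bp and 318 and 384 bp in the same order.

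Receptors and structural proteins of other tissues were almost without them. Narrow regions were within 2 kb of 2 of 1100 olfactory receptor genes, 1 of 352 vomeronasal receptor genes and 1 of 52 keratin-associated protein genes. Neither region at an olfactory receptor gene covered a start. Vmn1r4 shared its region (chr6:56923437-56924507) with Nt5c3, a nucleotidase gene, and its peaks were 1071 and 932 bp wide in KrasLA1 and 1006 and 757 bp in KrasLA1;Dicer1S2D. Krtap17-1 had a region over its start (chr11:99993892-99994605), at 243 and 621 bp in KrasLA1 and 705 and 475 bp in KrasLA1;Dicer1S2D.

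**Figure D4:**
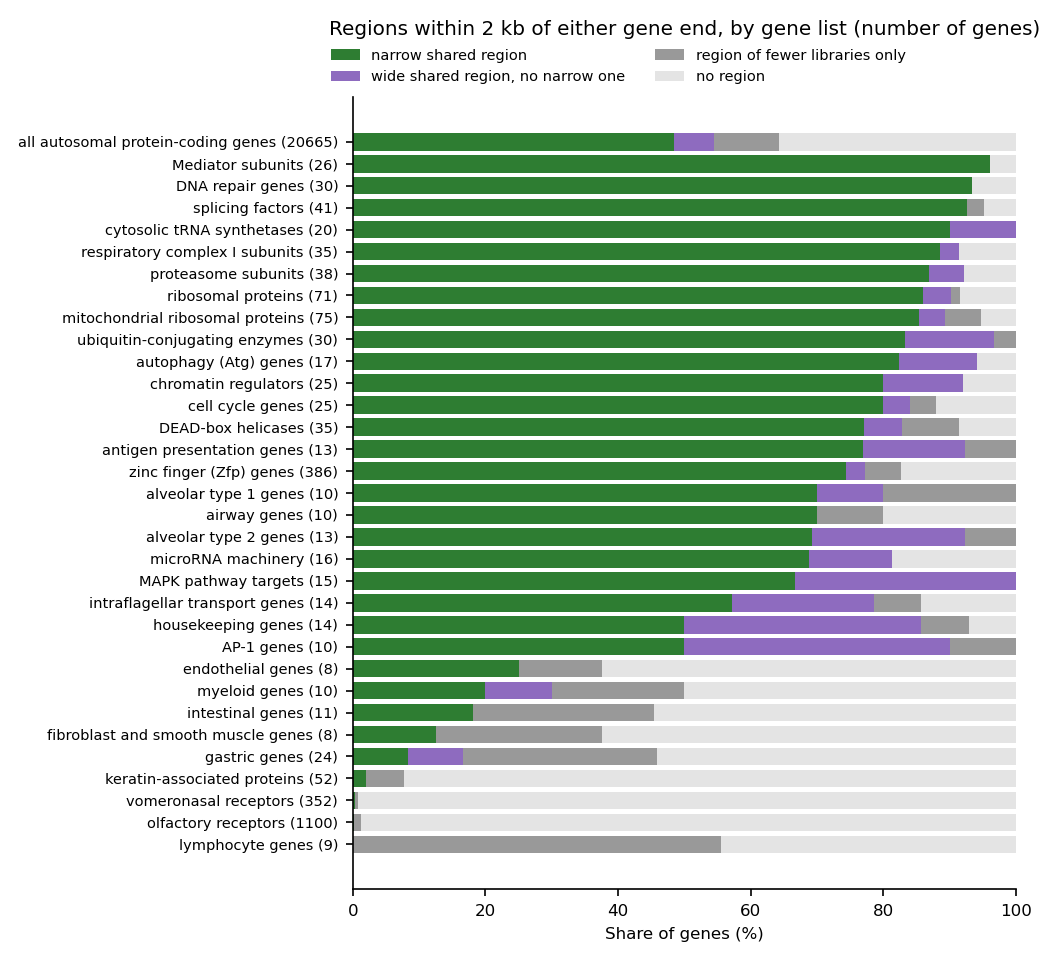
Share of the genes in each list (x axis, percent; number of genes in brackets on the y axis) with a narrow shared region, a wide one only, a region of fewer libraries only, or no region within 2 kb of either end. Mediator genes are at 96.2% narrow, all autosomal protein-coding genes at 48.4%, and lymphocyte genes at 0.0%.

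All alveolar type 2 markers and most alveolar type 1 and airway ones, but no endothelial ones, had peaks in every library. Of 8 markers of alveolar type 2 cells, which make surfactant, all 8 had a peak at an end in each library: 6 (Sftpc, Sftpb, Sftpa1, Sftpd, Napsa and Abca3) had a narrow region, and Lamp3 and Slc34a2 a wide one only. Near Sftpb, the gene of surfactant protein B, the widest narrow region of the list (chr6:72315352-72316780) was 1060 and 1309 bp wide in KrasLA1 and 1429 and 1290 bp in KrasLA1;Dicer1S2D. Near Sftpd, of surfactant protein D, the narrowest of the list was 521 and 671 bp in KrasLA1 and 627 and 448 bp in KrasLA1;Dicer1S2D (chr14:41170274-41170961). Alveolar type 1 markers had narrow regions at 5 of 6 genes (Ager, Hopx, Aqp5, Pdpn and Rtkn2) and peaks at 5 to 6 genes per library. Airway markers had narrow regions, and peaks in each library, at 3 of 4 (Scgb1a1, Foxj1 and Krt5), while Trp63 had no region. No endothelial marker of 4 (Pecam1, Cdh5, Kdr and Tek) had a region at an end in any library. Of other cells, the 4 lymphocyte markers had no narrow region and a peak at 0 to 2 genes per library, myeloid markers had narrow regions at Cd68 and Spi1 and peaks at 2 to 3 of 4 genes. Fibroblast and smooth muscle markers had a narrow region at Col1a1 and peaks at 1 to 2 of 4. In the longer lists narrow regions were at 9 of 13 alveolar type 2 genes, 7 of 10 alveolar type 1 genes, 7 of 10 airway genes, 10 of 13 antigen presentation genes, 2 of 8 endothelial, 2 of 10 myeloid, 1 of 8 fibroblast and smooth muscle, 0 of 9 lymphocyte, 2 of 24 gastric and 2 of 11 intestinal genes. Muc5ac, which encodes a mucin of gastric surface cells and of airway goblet cells, was the only gastric marker of 6 with a narrow region (chr7:141788758-141789467), at 710 and 310 bp in KrasLA1 and 539 and 493 bp in KrasLA1;Dicer1S2D. Peaks were at 4 and 1 of the 6 gastric markers in KrasLA1 replicates 1 and 2, and at 3 and 2 in KrasLA1;Dicer1S2D. Absence of a peak says only that the unknown threshold was not passed.

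The gene altered in the study and the lung's lineage factors all had regions at their ends. Dicer1, the nuclease that cuts microRNA precursors, had a narrow region (chr12:104751412-104752680), at 1218 and 1175 bp in KrasLA1 and 1235 and 992 bp in KrasLA1;Dicer1S2D, so the genotypes overlapped. Nkx2-1, the factor that specifies lung epithelium, had a narrow region (chr12:56529123-56530336) of 1159 and 1206 bp in KrasLA1 and 1171 and 901 bp in KrasLA1;Dicer1S2D, and a wide one. Foxa2, a pioneer factor of endoderm, had 2: 1 (chr2:148045556-148047044) of 1364 and 1474 bp in KrasLA1 and 1223 and 1247 bp in KrasLA1;Dicer1S2D, and another of 484 and 650 bp and 546 and 494 bp. Gata6, an endodermal zinc finger factor, had only a wide region. Hnf4a, a factor of gut and liver, had a region in replicate 1 of each genotype only, at 701 bp in KrasLA1 and 1127 bp in KrasLA1;Dicer1S2D, and so had none shared by all.

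The design compared the genotypes. Narrow regions were narrower in bp in both KrasLA1;Dicer1S2D libraries than in either KrasLA1 library, as were peaks at shared regions in general by their means. Their median peak width was 761 and 828 bp in KrasLA1 and 729 and 694 bp in KrasLA1;Dicer1S2D, means of 794.5 ± 47.4 bp and 711.5 ± 24.7 bp (SD, n = 2 each), a difference of -83 bp. The groups did not overlap. The difference was -49.5 bp without KrasLA1 replicate 2, and between -65.5 and -116.5 bp without each of the other libraries in turn. With 2 libraries a group the exact two-sided permutation test cannot give a p below 0.333, so no single value can pass it. Peaks differed in width between libraries everywhere, at medians of 604 and 713 bp in KrasLA1 and 610 and 562 bp in KrasLA1;Dicer1S2D over all shared regions, a difference of means of -72.5 bp. Once each library was centred on that median, the difference for narrow regions was 0.0062 on the log2 scale, smaller than the SD of 0.083 (n = 2) within KrasLA1. Wide regions had medians of 1484 and 1639 bp in KrasLA1 and 1393 and 1361 bp in KrasLA1;Dicer1S2D, and the genotype difference of narrow regions exceeded theirs by 0.021 on the centred scale. KrasLA1 replicate 2 had the widest peak in 50.1% of narrow regions and KrasLA1;Dicer1S2D replicate 2 the narrowest in 44.0%. Whether the depth or signal of these libraries has a part in this was not tested.

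No narrow region passed the test for a difference in width between genotypes. In limma on centred log2 widths, 0 of 26402 shared regions had an adjusted p under 0.05 (0.0% called), 0 of the 9499 narrow ones among them. Unadjusted, 206 narrow regions and 770 of all shared regions had p under 0.05, and the lowest adjusted p of a narrow region was 0.999. With this spread and 2 libraries a group, even large differences in width would rarely be called, so the 0 does not show that widths were alike. Widths did not overlap between genotypes in 1556 narrow regions that were wider in KrasLA1;Dicer1S2D (16.4%, compared with 16.9% of all shared regions) and in 1079 that were narrower (11.4%, compared with 10.8%). Both shares were near those of all shared regions. The wider ones made up 59.1% of these regions, compared with 60.9% over all shared regions. Without centring they made up 8.22%, compared with 11.8%. In that setting 295 narrow regions were wider (3.11%) and 3292 narrower (34.7%), compared with 3.66% and 27.2% of all shared regions. Centring moved the median difference of all shared regions from -0.12 to 0.04. With any 1 library left out the counts were higher, since only 3 libraries then have to stand apart. No share over all shared regions stands beside these counts, so they show nothing particular to narrow regions. The wider ones numbered 4583 and 2508 without KrasLA1 replicate 1 or 2 and 3858 and 2779 without KrasLA1;Dicer1S2D replicate 1 or 2, and the narrower ones 1955, 3542, 2247 and 2795 in the same order. Peaks in several pieces were found in 128 and 24 narrow regions in KrasLA1 and 252 and 134 in KrasLA1;Dicer1S2D.

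The regions with the largest differences lay at genes of many functions, and none passed the test (limma, adjusted p = 0.999 for each). Those relatively narrower in KrasLA1;Dicer1S2D included Ptger2, the gene of a prostaglandin E2 receptor (chr14:44988193-44989583), at 1044 and 1017 bp in KrasLA1 and 302 and 216 bp in KrasLA1;Dicer1S2D. Its difference was -1.85 on the log2 scale (SE 0.24). At Thbs4, of the matrix protein thrombospondin 4 (chr13:92751129-92752043), the widths were 915 and 843 bp in KrasLA1 and 203 and 260 bp in KrasLA1;Dicer1S2D. Kcnn3, of a calcium-activated potassium channel (chr3:89519995-89520927), had 933 and 929 bp over its start in KrasLA1 and 296 and 203 bp in KrasLA1;Dicer1S2D. The regions were chosen for a large difference without overlap, so a gap between the genotypes' pairs of libraries follows from the choice. Ppp2r2b, of a regulatory subunit of protein phosphatase 2A, had 651 and 727 bp in KrasLA1 and 181 and 196 bp in KrasLA1;Dicer1S2D. Sec14l4, of a lipid-binding protein (chr11:4047552-4048587), had 600 and 1036 bp and 252 and 236 bp. Mllt6, of a chromatin-associated fusion partner of MLL in leukaemia (chr11:97661732-97663090), had 871 and 1344 bp and 482 and 182 bp in the same order, and its difference of -1.70 was -1.06 without KrasLA1;Dicer1S2D replicate 2. Foxa1, which encodes a pioneer factor of airway and alveolar epithelium (chr12:57542155-57543438), had 788 and 1255 bp in KrasLA1 and 241 and 388 bp in KrasLA1;Dicer1S2D. Its peaks had no base common to all 4 libraries. At Cers4, of a ceramide synthase (chr8:4492920-4494071), KrasLA1;Dicer1S2D had 172 bp in replicate 1 and 585 bp in replicate 2, while KrasLA1 had 1072 and 1115 bp, and the difference was -1.62 (SE 0.61), or -0.68 without KrasLA1;Dicer1S2D replicate 1.

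In the other direction the differences rested more on single libraries. At Adamts6, a gene of a secreted metalloproteinase (chr13:104287872-104288693), the widths were 193 and 387 bp in KrasLA1 and 746 and 594 bp in KrasLA1;Dicer1S2D, a difference of 1.45 on the log2 scale (SE 0.31). Sox9, of a transcription factor of the distal tips of the developing lung (chr11:112781096-112781701), had 350 and 186 bp in KrasLA1 and 606 and 464 bp in KrasLA1;Dicer1S2D, a difference of 1.22, or 0.64 without KrasLA1 replicate 2. That the genotypes do not overlap in centred width was fixed by the choice, at these genes as at the others. Eml1, of a microtubule-binding protein (chr12:108370543-108371727), had 1014 and 246 bp in KrasLA1 and 1185 and 1074 bp in KrasLA1;Dicer1S2D, a difference of 1.34 (SE 0.73), so that only KrasLA1 replicate 2 stood far apart. Without that library the difference was 0.20. B3gnt3, of a glycosyltransferase (chr8:71700976-71702253), had 192 bp in KrasLA1 replicate 1 and 1137 bp in replicate 2, with 1076 and 909 bp in KrasLA1;Dicer1S2D. Its bp widths overlap between genotypes, and only the centred ones do not. Its difference of 1.25 fell to 0.083 without KrasLA1 replicate 1. Pard3b, of a cell polarity protein (chr1:61638489-61639975), likewise had 330 and 1417 bp in KrasLA1 and 1424 and 1161 bp in KrasLA1;Dicer1S2D, and its difference of 1.08 fell to 0.14 without KrasLA1 replicate 1. Tti1, of a partner of the kinases related to PI3K (chr2:157982733-157983524), had 192 and 260 bp in KrasLA1, and 792 bp in replicate 1 and 259 bp in replicate 2 of KrasLA1;Dicer1S2D. Without that replicate 1 its difference of 1.18 was 0.44. Rnf150, a RING finger gene (chr8:82863191-82864573), had 431 and 672 bp in KrasLA1 and 1337 and 832 bp in KrasLA1;Dicer1S2D. Steap4, of a metalloreductase (chr5:7960119-7960730), had 202 and 498 bp and 605 and 598 bp over its start, a difference of 1.09, or 0.56 without KrasLA1 replicate 1.

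**Figure D5:**
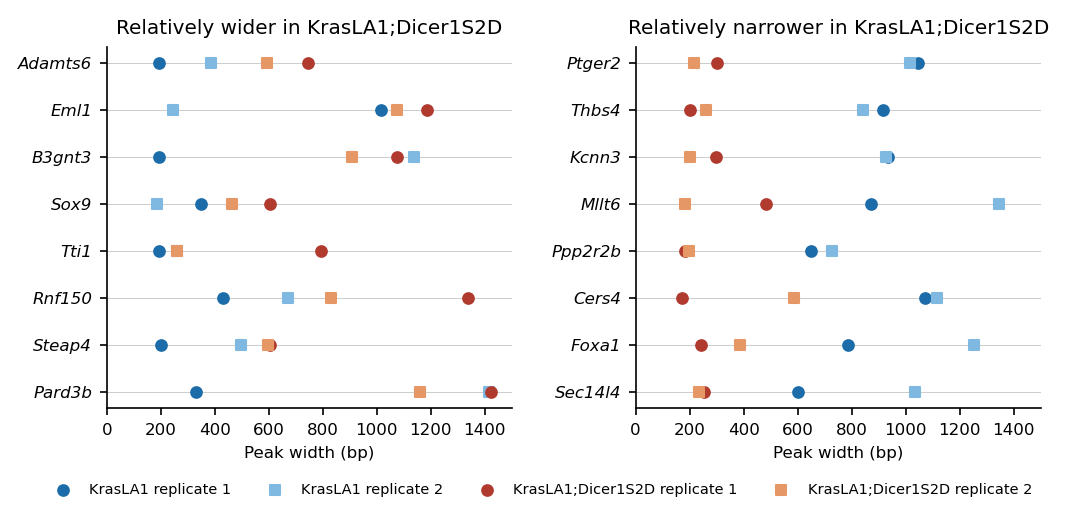
Peak width in bp (x axis) in each of the 4 libraries (1 symbol each) of the 8 narrow regions per direction with the largest genotype difference in centred width, named by the nearby gene (y axis). At Ptger2 the KrasLA1 libraries are at 1044 and 1017 bp and the KrasLA1;Dicer1S2D libraries at 302 and 216 bp, whereas at B3gnt3, Pard3b and Tti1 the symbols of the genotypes overlap.

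Agreement between libraries ran from nearly complete to none. Median common cores were 68.9% of the merged width in narrow regions and 64.6% in wide ones, and 95.8% of narrow regions had exactly 1 peak in each library, compared with 58.2% of wide ones. Sf3b2 had the largest core, 98.7% of its region (chr19:5295033-5295881), with peaks of 843 and 849 bp in KrasLA1 and 844 and 842 bp in KrasLA1;Dicer1S2D. Timmdc1 (chr16:38522223-38523070) had 847 and 839 bp and 846 and 836 bp, and Usf3, of a helix-loop-helix factor (chr16:44172313-44173197), 875 and 879 bp and 869 and 873 bp in the same order. Ppia, printed above, had 1360 and 1397 bp in KrasLA1 and 1367 and 1371 bp in KrasLA1;Dicer1S2D (chr11:6415344-6416740). In 22 narrow regions no base was common to all libraries. Among them were Ugt1a7c, of an enzyme that conjugates glucuronic acid (chr1:88094635-88095298), at 192 and 453 bp in KrasLA1 and 279 and 514 bp in KrasLA1;Dicer1S2D, and Aar2, of a splicing cofactor (chr2:156547304-156547979), at 226 and 673 bp and 534 and 237 bp. Spen, of a repressor of transcription (chr4:141536474-141537109), had 178 and 634 bp and 345 and 316 bp.

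At the lower end the narrowest regions were Abca14, of a lipid transporter family (200 bp, chr7:120203891-120204090), at 193 and 193 bp in KrasLA1 and 157 and 200 bp in KrasLA1;Dicer1S2D, and Eef1b2, of a translation elongation factor (209 bp, chr1:63181106-63181314), at 171 and 209 bp and 156 and 173 bp. At the limit of 1500 bp the regions were continuous. Just inside it, Tdrd7, Limd1 and Zhx1 had merged widths of 1499 bp, with peaks of 978, 1436, 981 and 1455 bp at Tdrd7 and of 1453, 1326, 1166 and 1201 bp at Zhx1 (KrasLA1 replicates 1 and 2, then KrasLA1;Dicer1S2D replicates 1 and 2). Just outside it, the region over 1700056E22Rik and Dusp10, a phosphatase of MAP kinases, and the region at Deptor, an inhibitor of mTOR, measured 1500 bp and that over Kdm7a, a histone demethylase, 1501 bp. Deptor had peaks of 1447, 1474, 1427 and 1461 bp in the same order. At Limd1, of a LIM domain scaffold, 3 of the 4 libraries had 2 peaks and widths came to 807, 1489, 742 and 773 bp.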

How the data were processed

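The data are ATAC-seq peaks of 4 libraries of lung tumour tissue, 2 of each genotype, grouped by the genotype in the labels. The authors deposited intervals in mm10 as tracks, 1 per library and 1 of merged regions, and per the file headers they carry a start and an end in bp and nothing on signal, so no score or count stands behind a peak. BWA 0.7.12, MACS3 3.0.0 and deepTools 3.5.1 are listed in the submitters' processing notes. What each was used for and with which settings, the peak threshold, any shift for the transposase and the read numbers are not stated there. Peaks were called in each library separately, so the number and width of peaks can follow depth, which is unknown. Of the tracks used, 0 columns were of other samples.

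The members, gene lists and rule for named genes were chosen with earlier results of these data known. A region's width in a library was the bases covered by its peaks there. Log2 widths were centred on the library's median over the 26402 shared autosomal regions and compared by genotype with limma 3.58.1 in R 4.3.3 over all of these, with Benjamini-Hochberg adjustment and a threshold of 0.05. This fit measures the spread between these mice, with 2 libraries a group. A deposited interval's width has no unit of signal, so fold differences are of width only. Genes and the 300-base promoters came from RefSeq tables on GRCm38.p6, which has the same chromosomes as mm10. Of the 20665 autosomal genes, 16457 had a promoter there and so a known direction. Motifs were searched on both strands as the letters printed. Of 2546 list symbols, 2543 were used, and Vsig1, Hprt and Pgk1 are not autosomal. Coordinates count from 1.

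Named regions were the 8 per direction with the largest genotype difference among those whose centred widths did not overlap, the 3 narrowest, the 3 either side of the width limit, the 3 near the most genes, the 3 with the smallest and the 3 with the largest common core, the narrowest and widest of each list (some are given only in counts, and 1 region is not reported here), and Dicer1, Nkx2-1, Hnf4a, Foxa2 and Gata6. Computation used matplotlib 3.10.9, scipy 1.17.1, pandas 2.3.3 and numpy 2.4.6 in Python 3.11.15. The width fit was tested on simulated data with changes of 2-fold and 4-fold in width. When each region kept its own spread between libraries it recovered 0% of the changed regions at either size. With an equal spread for all regions it recovered 8% and 98.5%, the latter with 12 false calls. An absence of calls carries little weight. Alternatives covered the width limit, the window, the width measure, centring, a replicate block, the start and core definitions and each library left out.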

Additional observations from a re-analysis of the deposited data

Results flagged for a closer look

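The genotype difference in centred median width had opposite signs in the 2 sexes, each with 1 library a genotype. For narrow regions KrasLA1;Dicer1S2D minus KrasLA1 was -0.076 on the log2 scale in the females (replicate 1) and 0.089 in the males (replicate 2). For wide regions at gene ends it was -0.11 in the females and 0.075 in the males. The difference between the sexes was not tested, and with 1 library in each cell of the design sex, replicate number and the single library cannot be told apart. In bp the narrow regions were narrower in KrasLA1;Dicer1S2D in both, with differences of -32 bp in the females and -134 bp in the males.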

How the results depend on the processing

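With a width limit of 1000 bp the rule kept 5852 regions. The genotype difference of median width, -83 bp, became 0.0062 on the log2 scale with each library centred on its median. Without centring, narrow regions whose widths did not overlap between genotypes numbered 295 wider (3.11%) and 3292 narrower (34.7%). The shares over all shared regions were 3.66% and 27.2%. With each library left out, when fewer libraries have to stand apart, narrow regions numbered 2508 to 4583 wider and 1955 to 3542 narrower. These last counts have no share over all shared regions beside them and show nothing particular to narrow regions. Starts were covered by or within 500 bp of 67.8% of regions, and covered by 79.5% where direction is known. Bases in at least 3 libraries made up 80.8% of a region. CpG-rich promoters were 78.9% of those within 500 bp. With a window of 1 kb 1 gastric gene had a narrow region, and 31 of the 32 lists stayed within 1.5 times their count. The differences at Eml1, B3gnt3, Pard3b, Tti1 and Cers4 shrank to 0.20, 0.083, 0.14, 0.44 and -0.68 with a single library left out; the 16 regions named for their difference were chosen for not overlapping, so their unchanged direction is no sign of stability. limma called 0 narrow regions in every fit with all 4 libraries, the block on replicate number among them. The lowest adjusted p of a narrow region across these was 0.505, in limma with that block. Unadjusted, 404 of the 9499 narrow regions and 1112 of the 26402 shared regions had p under 0.05 in limma without centring, and 308 and 1192 with the block. The counts stand over sets of unlike size and are not to be set side by side as they are. Deviations of same-numbered libraries correlated at 0.12 over shared regions, and with 2 pairs the numbers are not known to pair the mice. Depth is unknown, so a width limited by the peak threshold cannot be told from one limited by the chromatin.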

Other observations

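On X, which was left out of every count, 255 regions met the other criteria. By autosome, narrow regions made up between 27.8% of shared regions (chromosome 12) and 44.8% (chromosome 11, with 827 of its 1844), and there were 0.37 of them per protein-coding gene on chromosome 7 and 0.53 on chromosome 8. A narrow region was within 2 kb of an end of 1 gene in 7557 cases (79.6%), of 2 genes in 1837, of 3 in 101, of 4 in 3 and of 5 in 1.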
